A study of Coptotermes formosanus x Coptotermes gestroi and Coptotermes formosanus and Coptotermes gestroi with 67 samples.

Results

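The head and the body of termite workers were compared just before the molt, in 4 crosses of the genus Coptotermes. The profiles were those that the sample labels name as worker head or worker body at the pre-molting stage, and no measured value was used to choose them. They make up 23 of the 67 samples of the series (12 head and 11 body samples) and 8 of its 24 groups of cross, tissue and stage. The crosses were Hybrid F and Hybrid G, both offspring of matings between the species, and the parental species C. formosanus and C. gestroi. Body is the submitters' name for the thorax and abdomen after the gut was taken out, so gut tissue was not meant to be in either tissue. The other stages of the series, used here only to set the pre-molt difference against, are inter-molt (between molts) and post-molt (after the molt) workers of the same 4 crosses. The labels give no colony, age or treatment for any sample, and they do not say whether a head and a body came from the same workers.

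Insects grow by shedding the cuticle. Before each molt a pulse of ecdysteroid hormone makes the epidermis detach from the old cuticle and secrete a new one beneath it, and this happens over the head capsule and mouthparts as well as over the thorax and abdomen. The head holds the brain, the antennae, the mandibles with their muscles and several glands, whereas the thorax and abdomen hold the legs, most of the fat body (the main tissue of storage and metabolism) and the reproductive organs. Worker termites of this genus stop feeding and empty the gut before they molt.

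The deposited table gave expected counts (estimated read counts per gene) for 15950 gene IDs, 12000 with the prefix Cfor and 3949 with the prefix BGI_novel. Columns of the same group were identical wherever a group had more than 1, so each group entered as 1 profile and the spread within a group is unknown. The p-values below therefore measure how a difference recurs over the 4 crosses. The tests treat the crosses as independent, but both hybrids descend from the parental species, so the p-values can be too small. The pre-molt log2 ratios of head to body correlated at r = 0.919 between the hybrids and at 0.732 between the parental species. Pre-molt totals lay between 19497806 counts (C. gestroi body, deposited in 2 columns) and 38338701 counts (C. formosanus body), and 3 counts, the limit that a count of 0 allows, correspond to 0.0782 to 0.154 CPM (counts scaled to the same library total in every profile). The table does not pair its IDs with gene names or functions, so neither the tissue labels nor any pathway could be checked against known marker genes, and genes are given by ID with no role. The inter-molt profiles of Hybrid G stood apart from the other 3 crosses for several genes described here, and their values are given where they touch a result.

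Before the molt 2486 of 12602 tested genes (19.7%) differed between head and body at an adjusted p under 0.05 in edgeR's quasi-likelihood test with cross as a block. Of these, 1083 (8.59% of the genes tested) were higher in the head and 1403 (11.1%) were lower in the head. The genes lower in the head differed by more: 458 of them were at least 4-fold apart and 110 at least 16-fold, against 156 and 56 of the genes higher in the head. The median log2 fold change (head over body) was 0.97 among genes higher in the head, -1.37 among genes lower in the head and 0.02 among all genes tested. In bulk tissue a larger or smaller number of cells of a type and more or less RNA per cell cannot be told apart. The count was 1205 without C. formosanus, 1114 without Hybrid F, 999 without Hybrid G and 2667 without C. gestroi. It was 3897 with DESeq2 and 1028 in a fit that ignored the crosses.

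**Figure D1:**
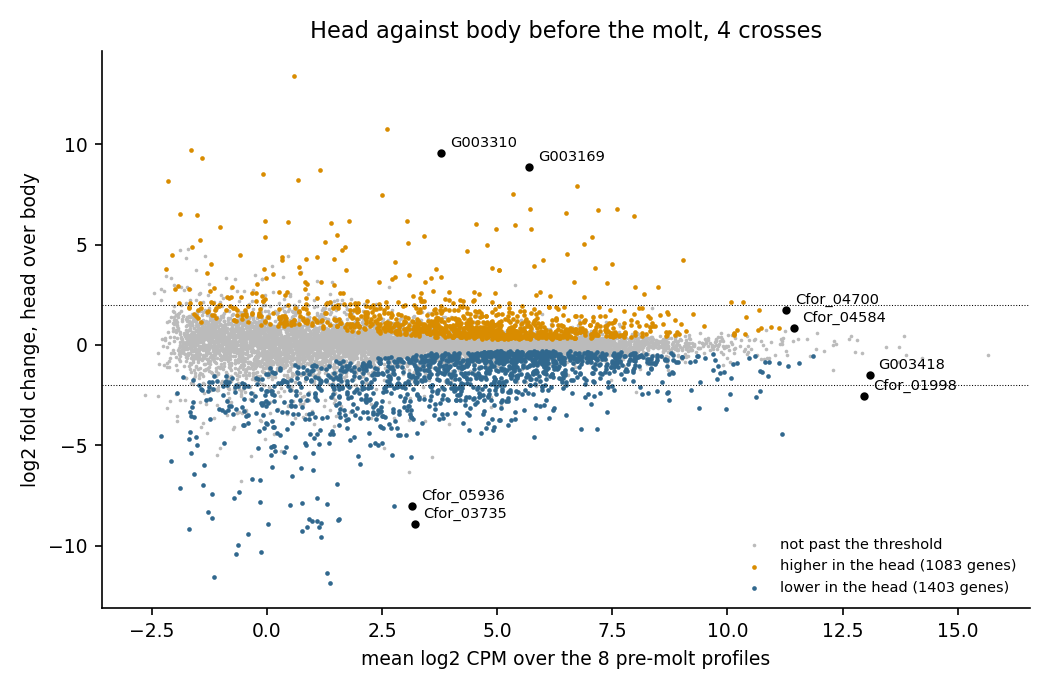
Log2 fold change of head over body (vertical axis) against mean log2 CPM over the 8 pre-molt profiles (horizontal axis), 1 point per tested gene; orange points are the 1083 genes higher in the head, blue points the 1403 genes lower in the head, grey points genes not past the adjusted p threshold, and dotted lines mark 4-fold. The cloud below the lower dotted line (458 blue genes) is denser than the one above the upper line (156 orange genes), and the 8 labelled genes are described in the text.

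The direction held cross by cross for nearly all of these genes. This follows in large part from the call, which was made on the same profiles with cross as a block. The agreement is therefore given as a description, and so is the number of called genes among those whose ranges did not overlap. Head and body differed in the same direction in all 4 crosses for 1081 of the 1083 genes higher in the head and for 1372 of the 1403 lower in the head, against 6173 of all 12602 tested genes (49.0%). A stricter description asks for at least a 4-fold difference within every cross. It was met by 88 genes in the head direction and by 214 in the body direction. The ranges of the 4 heads and the 4 bodies did not overlap for 1057 genes with all heads above all bodies and for 1060 genes with all bodies above all heads, and 703 and 836 of these were among the genes called (19.7% of all genes tested were called).

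The share of counts held by the called genes follows in part from the call and is given as a description. Genes lower in the head took 9.70 ± 0.23% of the counts in heads and 22.4 ± 2.57% in bodies (mean ± SD, n = 4 crosses). Genes higher in the head took 13.9 ± 0.56% of the counts in heads and 5.22 ± 0.47% in bodies. IDs with the prefix BGI_novel were 15.6% of the genes higher in the head and 21.1% of those lower in the head, against 25.6% of the genes tested. The genes higher in the head had a median deposited length of 3918 bases and those lower in the head 2768 bases, with 3047 bases over all genes tested.

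The largest difference in the head direction, among genes with a mean log2 CPM of at least 3, was that of BGI_novel_G003310. This gene was at 223, 307, 612 and 946 CPM in the heads of Hybrid F, Hybrid G, C. formosanus and C. gestroi, against 0.235, 0.418, 1.69 and 0.328 CPM in the matching bodies. Every head was far above every body, and the C. formosanus body was the highest of the bodies. The log2 fold change was 9.55 ± 0.52 (SE, adjusted p = 0.00106, edgeR). Between molts and after the molt the same gene lay at or below 0.12 CPM in all 8 heads and reached at most 1.20 CPM in a body. BGI_novel_G003169 came next, with 2197, 1303, 746 and 1402 CPM in heads and 3.72, 3.001, 4.04 and 1.05 CPM in bodies of the same crosses in that order (log2 fold change 8.86 ± 0.57, adjusted p = 0.00147, edgeR). It too was low in heads at the other stages, with 8.52 to 13.2 CPM after the molt and at most 0.0758 CPM between molts in 3 crosses, while the Hybrid G inter-molt head held 13.1 CPM.

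Among genes with the same minimum mean level, the largest differences in the body direction were those of Cfor_03735 and Cfor_05936. Cfor_03735 was at 0.595, 2.15, 0.132 and 0.135 CPM in the heads of Hybrid F, Hybrid G, C. formosanus and C. gestroi, against 101, 1038, 112 and 245 CPM in their bodies. The Hybrid G body was far above the other 3 bodies, and no head overlapped a body (log2 fold change -8.95 ± 0.54, adjusted p = 0.00126, edgeR). After the molt its body level was higher still, between 1096 and 3100 CPM, with heads at 2.32 CPM or less. Cfor_05936 was at 0.470, 1.46, 0.185 and 1.01 CPM in heads and at 151, 416, 40.8 and 216 CPM in bodies (log2 fold change -8.01 ± 0.16, adjusted p = 0.000402, edgeR). Its ratio varied little between the crosses although the body level itself ranged from 40.8 to 416 CPM.

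Among the genes called higher in the head, the 2 with the highest mean level in heads were Cfor_04700 and Cfor_04584. Cfor_04700 was at 9432, 7317, 3242 and 3260 CPM in the heads of Hybrid F, Hybrid G, C. formosanus and C. gestroi, against 3092, 2683, 1012 and 720 CPM in their bodies (log2 fold change 1.73 ± 0.17, adjusted p = 0.00402, edgeR). Both hybrids were above both parental species in each tissue, and the call was lost without the cross block (adjusted p = 0.154). Cfor_04584 was at 4463, 4968, 4522 and 3343 CPM in heads and at 1938, 2913, 1979 and 2836 CPM in bodies (log2 fold change 0.85 ± 0.20, adjusted p = 0.0433, edgeR). The C. gestroi head exceeded its body by a small margin, and the call was lost without C. formosanus (adjusted p = 0.154, edgeR), without Hybrid F (0.149), without Hybrid G (0.141), without the cross block (0.0730) and with RLE scaling (0.0528).

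Among the genes called lower in the head, the 2 with the highest mean level in bodies were Cfor_01998 and BGI_novel_G003418. Cfor_01998 was at 6758, 3454, 2702 and 3424 CPM in the heads of Hybrid F, Hybrid G, C. formosanus and C. gestroi, against 47662, 40814, 15190 and 8362 CPM in their bodies. Bodies of the hybrids were the highest and the lowest body still exceeded the highest head (log2 fold change -2.55 ± 0.42, adjusted p = 0.0154, edgeR). The call was lost without C. formosanus (adjusted p = 0.0667), without Hybrid F (0.0672) and with DESeq2 (0.0710). BGI_novel_G003418 was at 8657, 8144, 4352 and 4163 CPM in heads and at 19258, 23005, 9931 and 18169 CPM in bodies (log2 fold change -1.49 ± 0.21, adjusted p = 0.0106, edgeR), and its call was lost without Hybrid G (adjusted p = 0.0579) and without the cross block (0.0536).

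**Figure D2:**
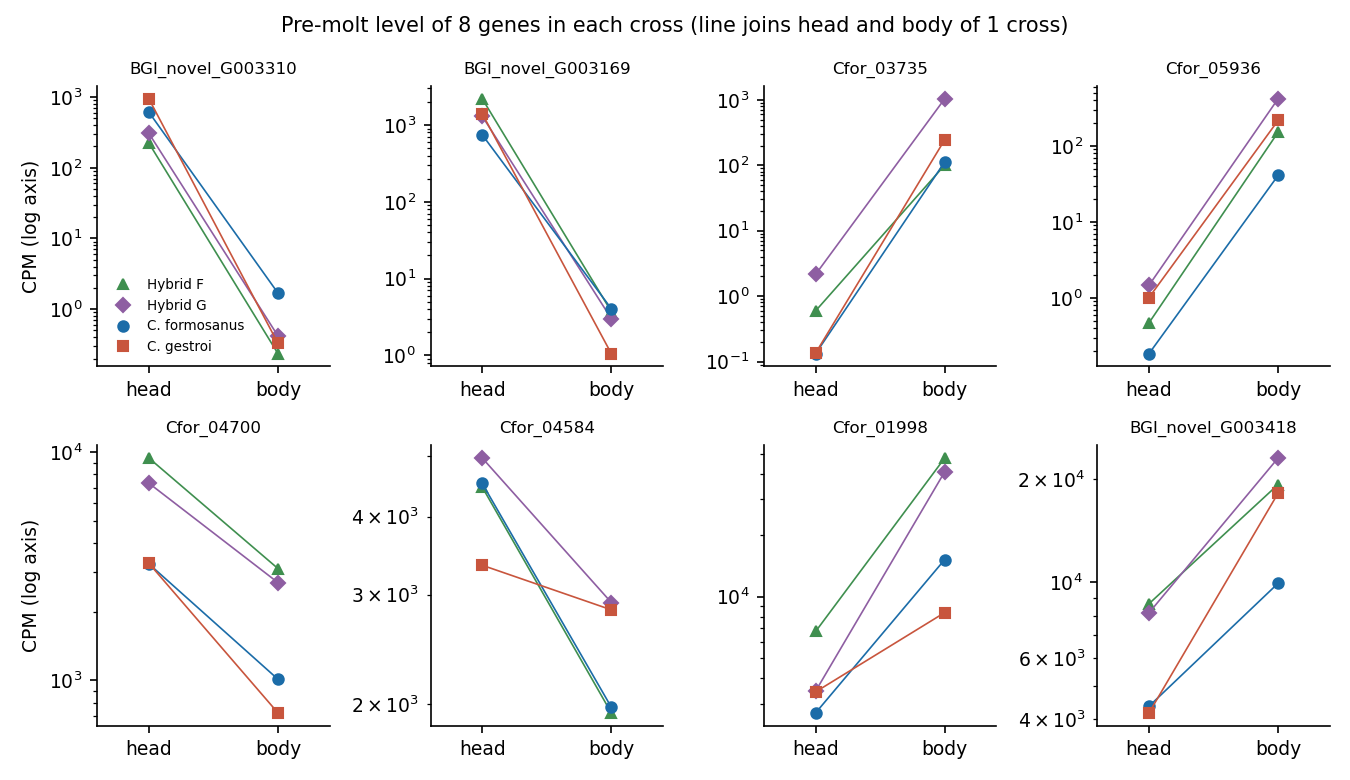
Pre-molt CPM on log axes of the 8 genes described in the text (the largest differences above, the highest levels below), head on the left and body on the right of each panel, with a line joining head and body of 1 cross. For BGI_novel_G003310 the heads lie between 223 and 946 CPM and the bodies between 0.235 and 1.69 CPM; for Cfor_04584 the C. gestroi line is nearly flat (3343 CPM in the head, 2836 CPM in the body).

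The most abundant transcript of all was not among the genes called. Cfor_09914 had the highest count in all 8 pre-molt profiles, with 2.63 to 8.06% of a profile's counts, and was looked at because of that. It was at 72020, 74737, 25489 and 44585 CPM in the heads of Hybrid F, Hybrid G, C. formosanus and C. gestroi, against 74443, 91016, 34331 and 103209 CPM in their bodies. The body was higher in all 4 crosses, by least in Hybrid F, and the difference did not pass the threshold (log2 fold change -0.49 ± 0.24, adjusted p = 0.204, edgeR).

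Few genes were detected in one tissue and nearly absent from the other. With limits of at least 10 CPM in all 4 profiles of a tissue and at most 1 CPM in all 4 of the other, 7 genes were restricted to the head and 5 to the body before the molt. The same limits gave 14 head and 33 body genes between molts, and 10 head and 76 body genes after the molt. Of the 7 head genes 2 met the limits between molts and 2 after the molt, and of the 5 body genes none met them between molts and 2 after the molt. These are counts with no test, and they moved with the limits, to 4 head and 2 body genes with 0.5 CPM as the lower limit and to 2 and 0 with 30 CPM as the upper one. Leaving out a cross widened them to at most 11 head genes (without C. gestroi) and to 9 (without C. formosanus) and 14 (without Hybrid G) body genes.

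Of the 7 head genes, 4 were below 1 CPM in every head at both other stages, namely BGI_novel_G003157, BGI_novel_G003161, Cfor_08154 and Cfor_09356. BGI_novel_G003157 was at 242, 245, 256 and 528 CPM in the pre-molt heads of Hybrid F, Hybrid G, C. formosanus and C. gestroi, and at most at 0.443 CPM in a pre-molt body. Cfor_08154 was at 33.6, 36.7, 56.8 and 54.9 CPM in these heads and had no count in any of the 4 bodies, where the table reads NA. Against 3 counts over the 4 bodies together, which is what a count of 0 allows, it was at least 1880-fold higher in the head, if NA stands for no reads. In the 16 profiles of the other stages Cfor_08154 was counted in a single one, a C. gestroi post-molt body, at 0.0704 CPM.

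The other 3 head genes were also found in heads at other stages. BGI_novel_G003717 was at 33.8, 20.2, 23.2 and 18.3 CPM in the pre-molt heads of Hybrid F, Hybrid G, C. formosanus and C. gestroi and at most at 0.854 CPM in a pre-molt body, while inter-molt heads held 171 to 311 CPM. Cfor_00319 ran the same way, with 14.1 to 26.6 CPM in pre-molt heads and 106 to 126 CPM in inter-molt heads. Both genes were thus lower in the head before the molt than between molts, and still nearly absent from the body. Cfor_10030 differed little by stage, with 13.01 to 18.3 CPM in pre-molt heads and 7.27 to 17.4 CPM in inter-molt heads.

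The 5 body genes ranged from even to very uneven levels between crosses. Cfor_09056 was at 16.9, 15.9, 445 and 676 CPM in the pre-molt bodies of Hybrid F, Hybrid G, C. formosanus and C. gestroi, and at most at 0.818 CPM in a head. Both hybrids thus held less of it than both parental species before the molt. They were also below both parental species between molts, at 465, 121, 701 and 1197 CPM in the bodies of these crosses, and after the molt, at 254, 339, 463 and 793 CPM. Cfor_10244 was the most even, with 13.9 ± 3.27 CPM over the 4 bodies (SD, n = 4). BGI_novel_G002574 was at 32.4, 70.4, 14.2 and 42.9 CPM in these bodies and at most at 0.683 CPM in a head. Cfor_07290 and Cfor_11747 made up the rest, with body levels between 13.5 CPM (Cfor_11747 in Hybrid F) and 135 CPM (Cfor_07290 in C. gestroi).

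A set of genes was present in the head before the molt and close to absent from it at the other stages. With at least 10 CPM in all 4 pre-molt heads and at most 1 CPM in the 8 heads of the other stages, 48 genes met this description, which was chosen after the values were seen. In the body the same limits were met by 19 genes. The limits use the pre-molt levels themselves, so no count of head-body calls is given for these genes. Of the 48, 31 were also at 10 CPM or more in all 4 pre-molt bodies, and of the 19, 18 were so in all 4 pre-molt heads. The same share over all genes at these levels is not given, so these counts are not shown to be particular to these genes.

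Genes far apart between head and body often had neighbouring ID numbers. Among the 156 genes at least 4-fold higher in the head, 34 had the next or the previous number in the same set, and 15.3% of their 235 tested neighbours were in it, against 1.24% of all genes tested. Among the 458 genes at least 4-fold lower in the head, 115 did so, and 18.1% of their 706 tested neighbours were in the set, against 3.63% of all genes tested. The sources used here do not say how the numbers were assigned, so a shared position in the genome is not known. Reads that match several similar genes are shared out among them in expected counts, so values of near-identical genes would be uncertain.

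A run of 4 head genes, Cfor_07955 to Cfor_07958, is shown as an example, chosen after its values were seen. Cfor_07955 was at 792, 588, 505 and 648 CPM in the pre-molt heads of Hybrid F, Hybrid G, C. formosanus and C. gestroi, against 5.23, 6.23, 5.59 and 5.98 CPM in the bodies (log2 fold change 6.76 ± 0.19, adjusted p = 0.00045, edgeR). Cfor_07956 held 2264 to 3221 CPM in heads and 24.6 to 35.3 CPM in bodies, and Cfor_07958 held 1573 to 2270 CPM in heads and 12.1 to 25.1 CPM in bodies. Heads and bodies were far apart for each of these genes, with little spread within a tissue. Cfor_07957 was more variable, at 13.6 and 18.8 CPM in the hybrid heads and 72.1 and 83.7 CPM in the parental ones, against at most 1.88 CPM in a body. At the other stages no head exceeded 0.529 CPM for any of the 4 genes, while post-molt bodies held up to 5.92 CPM of Cfor_07956. The genes on both sides of the run behaved otherwise. Cfor_07954 held 12.5 to 16.2 CPM in pre-molt heads and 5.18 to 11.8 CPM in bodies, and Cfor_07959 held 5.53 to 6.53 CPM in heads and 3.81 to 5.26 CPM in bodies.

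The longest run in the body direction had 6 genes, BGI_novel_G003407 to BGI_novel_G003412, with log2 fold changes from -4.42 for BGI_novel_G003407 to -3.20 for BGI_novel_G003408. BGI_novel_G003407 was at 855, 675, 304 and 638 CPM in the pre-molt heads of Hybrid F, Hybrid G, C. formosanus and C. gestroi, against 16259, 17326, 6133 and 13649 CPM in the bodies (SE 0.16, adjusted p = 0.000553, edgeR). BGI_novel_G003410 was at 4.32, 5.47, 5.36 and 0.673 CPM in heads and at 90.3, 93.9, 66.1 and 6.64 CPM in bodies. C. gestroi was thus low in both tissues for that gene, with the head still below the body. Between molts, the bodies held 167 to 4606 CPM of BGI_novel_G003407, with the highest level in Hybrid G.

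Many of the pre-molt differences recurred at the other stages, in other profiles of the same crosses. A separate fit called 3173 of 12400 genes (25.6%) between head and body between molts, 1509 higher in the head (12.2%) and 1664 lower (13.4%). After the molt it called 4812 of 12731 (37.8%), 2335 higher in the head (18.3%) and 2477 lower (19.5%). Of the 1083 genes higher in the head before the molt, 565 were also called so between molts (52.2% of the pre-molt list and 37.4% of the inter-molt one) and 846 after the molt (78.1% and 36.2%). Of the 1403 genes lower in the head, 714 were called so between molts (50.9% and 42.9%) and 1060 after the molt (75.6% and 42.8%). Calls in the opposite direction were 10 and 22 between molts and 15 and 19 after the molt. Of the genes called before the molt and tested at all 3 stages, 531 of 1004 were called higher in the head at each stage. Likewise 653 of 1340 were called lower at each, and a gene not called at a stage need not have changed its direction.

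Among genes with a minimum mean level over all stages, fewer were far apart between head and body before the molt than between molts in every cross. Among 7702 genes with a mean log2 CPM of at least 3 over all 24 profiles, those at least 4-fold apart in Hybrid F numbered 341 between molts, 298 before the molt and 401 after the molt. In Hybrid G they numbered 362, 295 and 418 at these stages, in C. formosanus 367, 273 and 434, and in C. gestroi 558, 373 and 356. The pre-molt count was the lowest of the 3 stages in each cross but C. gestroi, where the post-molt count was lower. The mean was 309.75 before the molt and 407 between molts (mean difference -97.25, lower in 4 of 4 crosses, exact two-sided paired permutation test p = 0.125, the smallest that 4 pairs allow), and 309.75 against 402.25 after the molt (mean difference -92.5, lower in 3 of 4 crosses, p = 0.25 in the same exact test). The correlation between head and body across these genes, given as a description since genes are not independent replicates, was r = 0.852 to 0.895 before the molt, 0.803 to 0.848 between molts and 0.824 to 0.848 after the molt, and was highest before the molt in all 4 crosses. Before the molt genes at least 4-fold apart were mostly lower in the head, with 44, 43, 54 and 106 higher in the head and 254, 252, 219 and 267 lower in the head in Hybrid F, Hybrid G, C. formosanus and C. gestroi. Between molts 121, 65, 108 and 357 were higher in the head and 220, 297, 259 and 201 lower. Among these 7702 genes the number higher in the head was thus smaller before the molt in all 4 crosses. The number lower in the head was larger before the molt in Hybrid F and C. gestroi and smaller in Hybrid G and C. formosanus. A minimum mean over all 24 profiles can leave out genes that are high only in pre-molt heads. In the 7593 genes used below to compare crosses, 75, 72, 90 and 156 were at least 4-fold higher in the pre-molt head. Those at least 4-fold lower numbered 234, 229, 190 and 220, in the same order of crosses. No inter-molt count is given for these 7593 genes, so whether the smaller number holds for them was not tested.

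Counts were less concentrated in the highest genes in the head than in the body before the molt. The 10 highest genes held 20.2, 19.8, 12.2 and 13.8% of the counts in the heads of Hybrid F, Hybrid G, C. formosanus and C. gestroi, against 22.1, 23.2, 14.7 and 20.8% in their bodies. The share was lower in the head in 4 of 4 crosses (mean difference -3.75 ± 2.29 percentage points, SD, exact two-sided paired permutation test p = 0.125, the smallest that 4 pairs allow), and the hybrids were above the parental species in both tissues. Between molts the share was lower in the head in 3 of 4 crosses, with 12.4 ± 0.93% in heads and 13.7 ± 2.80% in bodies (exact p = 0.375). With counts per kilobase it was lower in the head in 4 of 4 crosses both before the molt, by 4.48 percentage points, and between molts, by 6.96 (exact p = 0.125 each), so the direction was not particular to the pre-molt stage. After the molt the head was higher in 4 of 4 crosses, with 20.8 ± 1.89% in heads and 14.1 ± 1.02% in bodies (exact p = 0.125). IDs with the prefix BGI_novel took 14.1, 13.98, 13.5 and 10.997% of the counts in pre-molt heads and 16.6, 17.0, 16.2 and 14.2% in bodies of the same crosses, lower in the head in 4 of 4 crosses (exact p = 0.125). The same held between molts, with 8.56 ± 1.29% in heads and 11.5 ± 2.07% in bodies (lower in 4 of 4 crosses, exact p = 0.125).

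**Figure D3:**
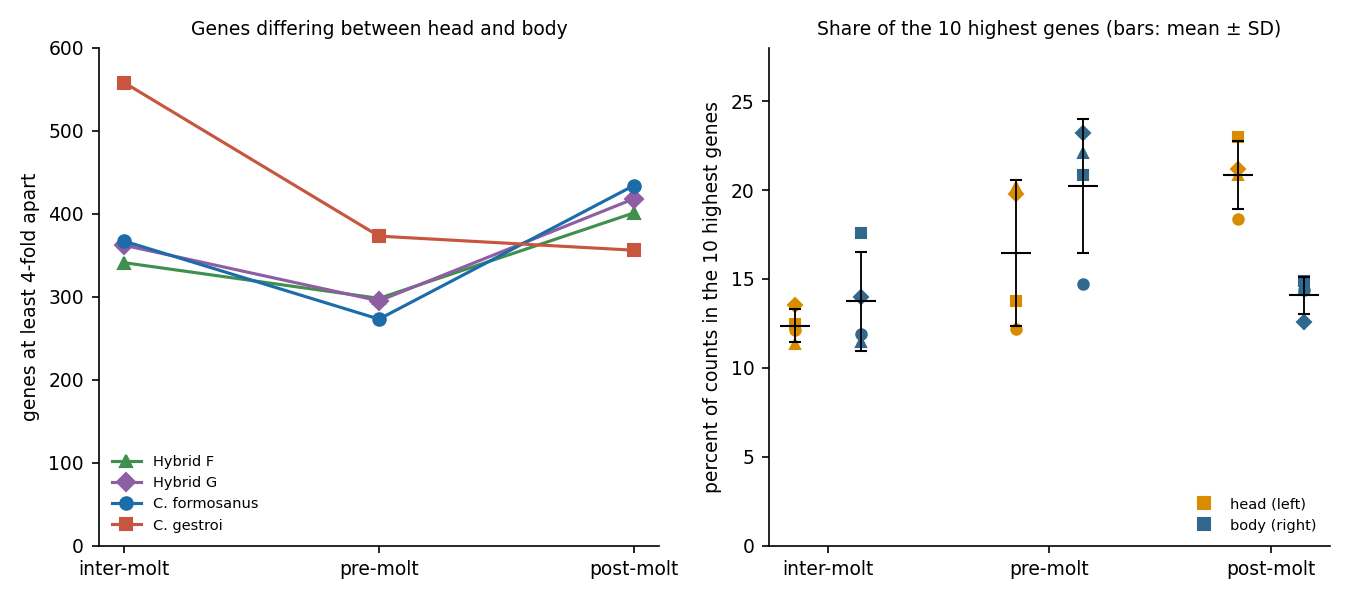
Left, number of genes at least 4-fold apart between head and body at each stage, 1 line per cross; right, percent of counts in the 10 highest genes of each profile (symbols per cross as on the left, head left of body) with the mean ± SD of 4 crosses. The pre-molt counts on the left lie between 273 and 373, and on the right heads lie below bodies before the molt (16.5% against 20.2% on average) and above them after the molt.

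A test of the difference itself asked which genes had another head-body difference before the molt than between molts. It called 1307 of 13534 genes (9.66%), 500 with the difference shifted towards the head (3.69%) and 807 shifted towards the body (5.96%), with all 24 profiles in 1 edgeR fit. The pre-molt difference was the smaller one in size for 919 of the 1307, and its mean sign over the crosses was opposite between the stages for 263 of the 500 and 468 of the 807. The same shares over all genes tested are not given, so these counts are not shown to be particular to the called genes. The count depended on single crosses: it was 37 without Hybrid F, 409 without C. formosanus, 714 without C. gestroi and 717 without Hybrid G. Without the Hybrid G inter-molt pair alone it was 1970, 991 shifted towards the head and 979 towards the body. Without other inter-molt pairs it was 443 (Hybrid F), 683 (C. formosanus) and 828 (C. gestroi), and without pre-molt pairs 855 (C. gestroi) and 691 (Hybrid G). With the 2 stages alone it was 401, with DESeq2 2588, and after thinning all profiles to the smallest total 1167.

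Cfor_05035 shifted most towards the head, by a log2 contrast of 7.20 ± 1.15 (SE, adjusted p = 0.00573, edgeR). It was at 3.60, 3.94, 5.01 and 1.68 CPM in the pre-molt heads of Hybrid F, Hybrid G, C. formosanus and C. gestroi and at 3.82, 6.08, 11.7 and 26.4 CPM in the bodies. Between molts the heads held 5.21, 3.82, 5.71 and 3.21 CPM and the bodies 1705, 534, 1262 and 10802 CPM. Heads were alike at both stages, while the high level in the body was present only in the inter-molt and, at 86.7 to 214 CPM, in the post-molt profiles. The call was lost without Hybrid F (adjusted p = 0.111). BGI_novel_G003323 came second (log2 contrast 5.69 ± 0.64, adjusted p = 0.00139, edgeR), with 4008, 2358, 1612 and 1871 CPM in pre-molt heads and 23.7, 20.0, 27.2 and 16.6 CPM in pre-molt bodies. Between molts its heads held at most 0.735 CPM in 3 crosses and 11.5 CPM in Hybrid G, and its call was lost without Hybrid F (adjusted p = 0.0554). After the molt its heads still held 445 to 563 CPM and its bodies 0.811 to 5.31 CPM, so its excess in the head was not confined to the pre-molt stage.

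In the other direction Cfor_09256 shifted most (log2 contrast -5.42 ± 0.60, adjusted p = 0.00132, edgeR). It was lower in the head before the molt, at 90.2, 412, 559 and 368 CPM in the heads of Hybrid F, Hybrid G, C. formosanus and C. gestroi and 553, 996, 932 and 865 CPM in the bodies. Between molts it was higher in the head, at 28.6, 1715, 42.1 and 34.9 CPM in heads and 3.13, 36.5, 4.41 and 2.45 CPM in bodies, with Hybrid G far above the other crosses. Cfor_06096 had nearly equal levels before the molt, at 66.0, 58.6, 59.6 and 37.1 CPM in heads and 63.1, 60.1, 42.2 and 43.7 CPM in bodies, while between molts its bodies held 1.17 to 4.79 CPM and its heads 62.9 to 116 CPM (log2 contrast -5.15 ± 0.44, adjusted p = 0.000399, edgeR). The bodies were higher before the molt than between molts in all 4 crosses, while the heads averaged 55.3 ± 12.6 CPM before the molt and 78.5 ± 25.4 CPM between molts (SD, n = 4) and were lower before the molt in all crosses but Hybrid F.

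Against the post-molt difference fewer genes were called, 388 of 13534 (2.87%), 118 shifted towards the head (0.872%) and 270 towards the body (1.99%). The pre-molt difference was the smaller in size for 292 of them, again with no share over all genes tested beside it. The count was 41 without Hybrid F, 92 without Hybrid G, 147 without C. formosanus, 452 without C. gestroi and 1006 with DESeq2. Without single pairs it fell to 124 (Hybrid G post-molt), 136 and 152 (Hybrid F post-molt and pre-molt), 188 (Hybrid G pre-molt), 231 (C. gestroi post-molt) and 256 (Hybrid F inter-molt and C. formosanus post-molt). Both stage contrasts share the pre-molt profiles, so their calls are not independent.

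Cfor_08155 shifted most towards the head against the post-molt stage (log2 contrast 5.38 ± 0.65, adjusted p = 0.00149, edgeR). Its pre-molt heads held 928, 624, 885 and 1031 CPM in Hybrid F, Hybrid G, C. formosanus and C. gestroi, against 18.2, 31.8, 74.7 and 154 CPM in the bodies. After the molt it held at most 1.83 CPM in a head and 3.84 CPM in a body, so the gene was high in both tissues before the molt alone and highest in the head. BGI_novel_G000748 followed (log2 contrast 4.40 ± 0.83, adjusted p = 0.0196, edgeR), with 0.640 to 2.14 CPM in pre-molt heads, 4.29 to 39.5 CPM in pre-molt bodies and 135 to 429 CPM in post-molt bodies. Its call was lost in 8 of 22 alternatives, with adjusted p up to 0.245.

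Towards the body, Cfor_07651 shifted most (log2 contrast -6.86 ± 0.40, adjusted p = 1.01e-05, edgeR). Before the molt it was at 29.0, 56.0, 55.7 and 109 CPM in the heads of Hybrid F, Hybrid G, C. formosanus and C. gestroi and at 26.0, 24.3, 44.0 and 74.9 CPM in the bodies, so that both tissues held similar levels. After the molt the heads held 74.4 to 203 CPM and the bodies 0.496 to 1.13 CPM. Between molts, too, its bodies were low, at 0.166 to 2.01 CPM, so the high body level was seen before the molt alone. Cfor_01833 (log2 contrast -5.82 ± 0.97, adjusted p = 0.0109, edgeR) was at 1.46 to 45.2 CPM in pre-molt heads and 3.08 to 31.7 CPM in pre-molt bodies, with overlapping ranges. After the molt it was at 16.9 to 126 CPM in heads and 0.211 to 1.92 CPM in bodies, and its call was lost without Hybrid F (adjusted p = 0.144) and without Hybrid G (0.116).

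**Figure D4:**
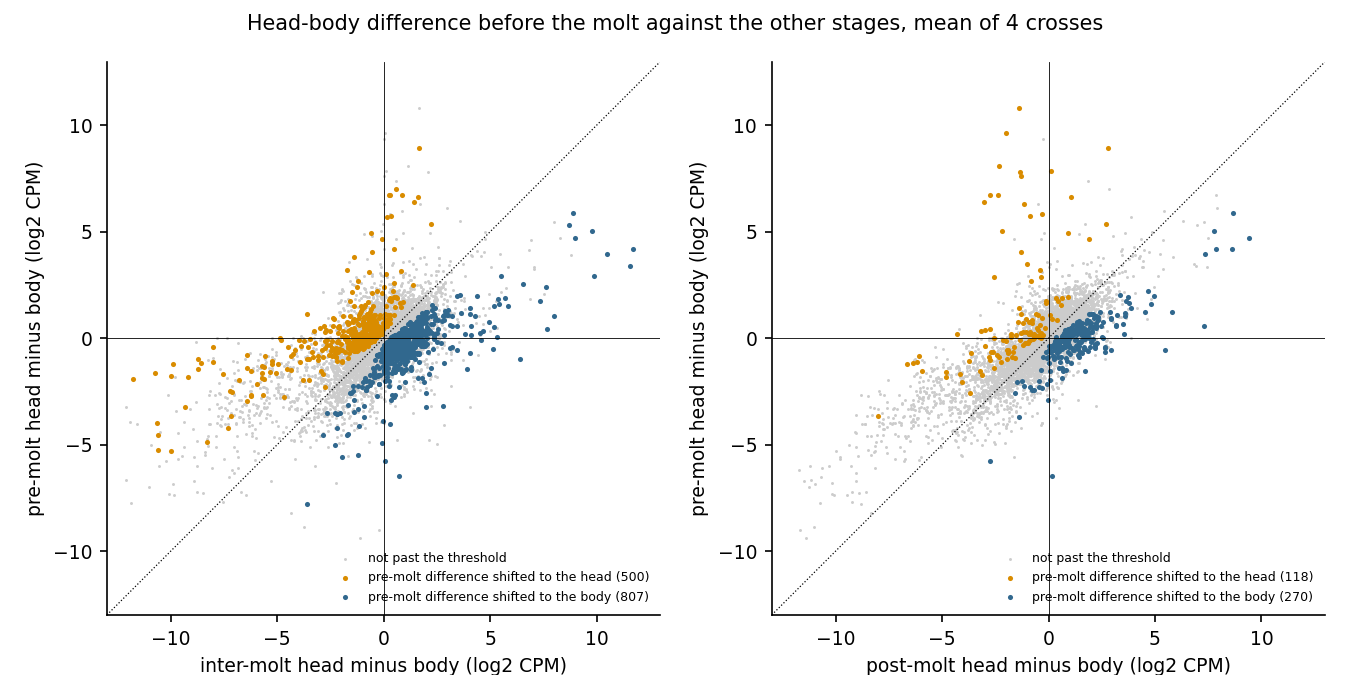
Head minus body log2 CPM before the molt (vertical axis, mean of 4 crosses) against the same difference between molts (left) and after the molt (right), 1 point per gene; orange and blue points are genes whose difference was shifted towards the head (500 and 118) or the body (807 and 270) before the molt, and the dotted line marks equal differences. Many coloured points lie nearer to the horizontal zero line than to the vertical one, which is the smaller pre-molt difference of 919 of 1307 and 292 of 388 genes.

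Across the crosses the head-body difference was most alike in the hybrids. Over 7593 genes, the median absolute difference between the log2 ratios of Hybrid F and Hybrid G was 0.14, and 28 genes were at least 4-fold apart between them. For the parental species against each other the median was 0.31, with 143 genes at least 4-fold apart. Each hybrid was nearer to C. formosanus (0.23 for Hybrid F and 0.19 for Hybrid G) than to C. gestroi (0.41 and 0.34). C. gestroi also had the largest ratios in general, with a median absolute log2 ratio of 0.42, against 0.27 in Hybrid F, 0.24 in Hybrid G and 0.27 in C. formosanus. These are descriptions of 1 pair of profiles per cross, and the C. gestroi body had the lowest total count of the 8. It also had the most genes read as NA, 1984, against 1012, 1173 and 1455 in the bodies of Hybrid F, Hybrid G and C. formosanus. Whether either bears on the ratios of C. gestroi, or on the hybrids being nearer to C. formosanus, was not tested.

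Of the 143 genes whose head-body ratio differed at least 4-fold between the parental species, Hybrid F lay between them for 87 and Hybrid G for 99. Hybrid F was nearer to C. formosanus than to C. gestroi for 101 of the 143 and Hybrid G for 91. Over all 7593 genes, not only these 143, Hybrid F lay outside both parental species by at least 4-fold for 25 and Hybrid G for 24.

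**Figure D5:**
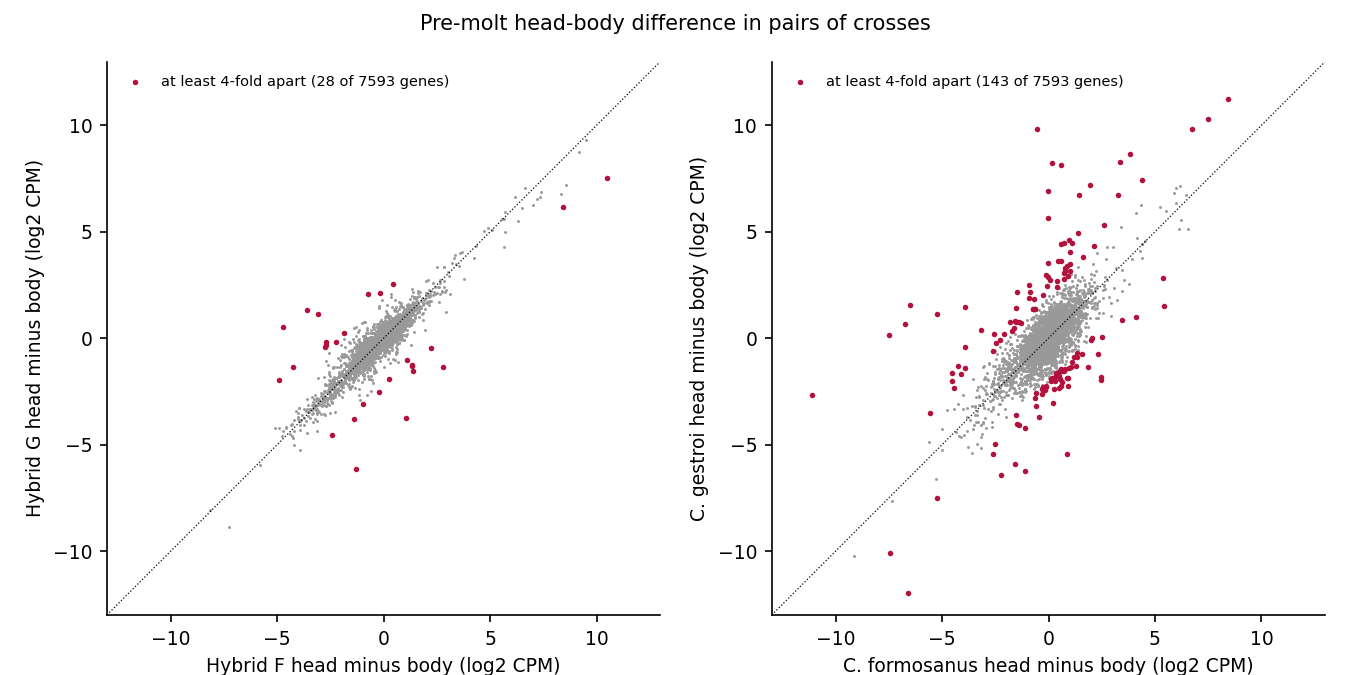
Pre-molt head minus body log2 CPM of 7593 genes in pairs of crosses, Hybrid G against Hybrid F on the left and C. gestroi against C. formosanus on the right; red points are genes at least 4-fold apart between the 2 crosses and the dotted line marks equal ratios. The hybrids have 28 red points and the parental species 143, spread widely around the line.

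A test of hybrids against parental species called 2 of 13534 genes (0.0148%) for their pre-molt head-body difference, both shifted towards the head in hybrids. At an unadjusted p under 0.05 (edgeR) there were 1554 genes, where chance alone would give 676.7. DESeq2 called 224, 107 shifted towards the head and 117 towards the body. The count was 951 without C. formosanus, 335 towards the head and 616 towards the body, and 0 without C. gestroi, without Hybrid F or without Hybrid G, and it was 0 after thinning all profiles to the smallest total and with the 8 pre-molt profiles alone. BGI_novel_G001370 was at 0.282 and 0.358 CPM in the heads of Hybrid F and Hybrid G and at 0.871 and 0.950 CPM in their bodies. In C. formosanus and C. gestroi it was at 0.0264 and 0.370 CPM in the heads and at 3.63 and 112 CPM in the bodies (log2 contrast 6.54 ± 0.64, adjusted p = 0.0399, edgeR). The call was lost in 14 of 22 alternatives.

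The other called gene, BGI_novel_G001398, rested on 2 profiles. It was at 2.38 CPM in the Hybrid F head and 1.38 CPM in the C. formosanus body, and the other 6 pre-molt profiles had no count, so no fold is given. At the other stages it lay between 12.04 and 31.4 CPM in all 16 profiles. In the opposite direction the 2 genes with the smallest p, BGI_novel_G000049 and Cfor_02600, did not pass the threshold (adjusted p = 0.0888 and 0.0990, edgeR). BGI_novel_G000049 was at 9.33 and 14.4 CPM in the heads and 25.9 and 32.4 CPM in the bodies of Hybrid F and Hybrid G, against 34.0 and 3.06 CPM in the heads and 31.6 and 2.96 CPM in the bodies of C. formosanus and C. gestroi. Heads were thus below bodies in both hybrids, and near equal to them in both parental species.

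For 32 genes the head-body difference turned its sign between crosses by at least 2-fold each way, the higher tissue being at 10 CPM or more in a cross of each direction, and for 3 genes by at least 4-fold each way. C. gestroi was the odd cross in 12 of the 32, C. formosanus in 7, Hybrid G in 4 and Hybrid F in 1. Cfor_09261 was at 21.1 CPM in the head and 2.81 CPM in the body of Hybrid G, against 0.783 and 7.31 CPM in head and body of Hybrid F and 0.897 and 11.5 CPM in C. formosanus. It had no count in any of the 16 profiles of the other stages. BGI_novel_G003406 was lower in the head in C. formosanus alone, at 2.37 CPM in the head and 37.4 CPM in the body, whereas the other crosses held 167 to 217 CPM in heads and 28.9 to 73.7 CPM in bodies. These genes were chosen for their sign change, and with 1 profile per cross and tissue no test of it is possible.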

How the data were processed

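Workers of 4 Coptotermes crosses were profiled by mRNA sequencing in head and body at 3 molting stages. The authors deposited expected counts per gene with a gene length. Bowtie2, RSEM and DESeq2 were used per the submitters' processing notes. Their versions and roles, the build and the annotation: not given in the sources used here. Identical columns of a group were read as 1 profile and NA (8.24% of the pre-molt values) as 0. Totals followed the number of columns of a group, and intervals and floors cover counting error only.

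Expected counts were rounded, filtered with filterByExpr (12602 genes kept for the pre-molt fit, 13534 for the fits over all profiles), and scaled by TMM. Tests were edgeR 4.0.16's quasi-likelihood F-tests with robust fitting (R 4.3.3), and a gene was called at a Benjamini-Hochberg adjusted p under 0.05. The pre-molt fit had cross as a block and 3 residual degrees of freedom. The stage contrasts had each pair of cross and stage as a block and 9, and the hybrid contrast 6. DESeq2 1.42.0 was an alternative, besides RLE scaling, no filter, thinning, and leaving out crosses, pairs or genes with NA. The scripts were tested on simulated data. A standard error is the absolute log2 fold change over the root of the F statistic. Printed CPM are scaled by TMM over all 24 profiles, and log2 CPM use a prior count of 2.

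Genes named are the 2 per direction with the largest change. These were taken among called genes that go 1 way in all 4 crosses and average a log2 CPM of 3 or more. Named too are the 2 genes called higher in the head with the highest mean CPM in heads. The 2 called lower in the head with the highest mean CPM in bodies are added. So are the 2 per direction with the smallest p for hybrids against parental species, and 2 whose sign turned. Others are said to be chosen after their values were seen, or are the restricted genes. Of 10 gene lists and the tissue markers, 0 IDs could be matched, since IDs carry no names. The members, lists and tests were chosen with earlier results of these data known. Gene names, functions and sequences were not used here.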

Additional observations from a re-analysis of the deposited data

Results flagged for a closer look

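In 6 of 54 groups of 4 pre-molt profiles 1 profile lay far from the other 3. The groups held the CPM of a named gene or a measure of the whole profile, and all 6 were of a named gene. The limit used is passed by chance in about 1 in 20 groups of normally distributed values. That rate does not hold for CPM of genes chosen for large or uneven differences. BGI_novel_G003310 was at 1.69 CPM in the C. formosanus body, above the other 3 bodies. Cfor_03735 was at 1038 CPM in the Hybrid G body, above the other 3. BGI_novel_G001398 was at 2.38 CPM in the Hybrid F head and at 1.38 CPM in the C. formosanus body, and had no count in the other pre-molt profiles. BGI_novel_G001370 was at 112 CPM in the C. gestroi body, and Cfor_09261 at 21.1 CPM in the Hybrid G head.

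The head-body difference before the molt differed from that between molts in 1307 genes and from that after the molt in 388 genes, by edgeR tests of the difference itself. The named genes of the first contrast were Cfor_05035 (log2 contrast 7.20), BGI_novel_G003323 (5.69), Cfor_09256 (-5.42) and Cfor_06096 (-5.15). Those of the second were Cfor_08155 (5.38), BGI_novel_G000748 (4.40), Cfor_07651 (-6.86) and Cfor_01833 (-5.82). Hybrids differed from parental species in 2 genes, BGI_novel_G001370 (log2 contrast 6.54) and BGI_novel_G001398, whose fitted log2 contrast of 15.70 rests on profiles without a count, depends on the prior count and is no bound.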

How the results depend on the processing

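No paired analysis was possible because replicate-numbered columns of a group were identical, so a block on the replicate number could not be fitted. This concerns replicate numbers alone, since heads and bodies were paired by cross throughout. The 2486 genes called between head and body became 3897 with DESeq2, 3851 with all 24 profiles in the fit, 1028 with no cross block and 1384 with at least a 2-fold change besides (added after the data were seen), and 999 to 2667 with 1 cross left out. The 1307 genes of the inter-molt contrast became 2588 with DESeq2, 401 with 2 stages only and 548 with hybrids only, 37 to 717 with 1 cross left out and 443 to 1970 with 1 head and body pair left out (leaving out pairs was added after the data were seen). The 388 genes of the post-molt contrast became 1006 with DESeq2, 41 to 452 with 1 cross and 124 to 479 with 1 pair left out. The 2 genes of the hybrid contrast became 224 with DESeq2, 0 when thinned, 0 with the 8 pre-molt profiles, 0 to 951 with 1 cross and 0 to 8 with 1 pair left out. The cause of these changes was not tested, beyond the smaller number of profiles or genes that some settings leave.

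Head-restricted genes (7) became 4 and 2, and body-restricted genes (5) became 2 and 0, under the limits 10 and 0.5 CPM and 30 and 1 CPM; with 1 cross left out they were 7 to 11 and 7 to 14. The difference in genes at least 4-fold apart stayed negative with 1 cross left out, at -115 to -68 against inter-molt and -129 to -69.7 against post-molt, as did the share of the 10 highest genes at -4.35 to -2.65 percentage points. For the 23 named genes, 336 of 388 alternatives left direction and side of the threshold as they were, 48 lost the call, 4 gained it and none turned the direction. Depth limits statements to levels above the floor of 3 counts, and 1 profile per group leaves the spread between workers or colonies unmeasured.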
